A study of Mus musculus with 8 samples.

Results

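Liver-enriched and fasting transcription factors were followed in bulk RNA sequencing of livers that lacked pyruvate carboxylase. The 9 genes were taken by symbol, namely Foxa2, Foxa3, Cebpa, Klf15, Foxo1, Foxo3, Creb3l3, Crtc2 and Tfeb, among the 35275 genes of the count table. The rule uses the symbols and no threshold on their values, and the genes were proposed with earlier results of these data known. All 9 were found and all 9 passed the filter on low counts that left 13168 genes for testing. The livers came from 4 Pcx L-/- mice and 4 Pcx f/f littermates, which the labels call WT. The Pcx L-/- mice carried Albumin-Cre, which is active in hepatocytes, and both genotypes carried the floxed exon 10 of Pcx, derived with a Flpe deleter. The labels give the strain of all 8 mice as C57BL/6. All 8 mice were male, 9 weeks old, fed chow and fasted for 24 h before the liver was taken. No fed mice were analysed here, so every value below compares genotypes within the fasted state.

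The forkhead proteins FOXA2 and FOXA3 and the basic leucine zipper protein C/EBPα establish and maintain the hepatocyte programme, including albumin, apolipoproteins and gluconeogenic enzymes. The other 6 factors carry the signals of fasting. FOXO1 and FOXO3 are held in the cytoplasm when insulin activates AKT. CRTC2 enters the nucleus when glucagon signalling removes its inhibitory phosphates and there it co-activates CREB. CREB3L3 is released from the endoplasmic reticulum by proteolysis and acts with PPARα on genes such as Fgf21. KLF15 drives amino acid catabolism, and TFEB controls lysosomal and autophagy genes once mTORC1 no longer retains it. The activity of most of these proteins is set after translation, which read counts do not measure.

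The deleted gene was read first as a check of the labels. Pcx, which encodes pyruvate carboxylase, had 19802, 14371, 19513 and 22059 normalized counts in the control mice and 758, 556, 678 and 732 in the Pcx L-/- mice, in the order of replicates 1 to 4. The genotypes did not overlap, and the Pcx L-/- mean was 3.6% of the control mean as fitted (log2 fold change −4.80). A normalized count is the read count of a gene scaled to a common library size with TMM factors, which correct for a few abundant transcripts taking more of the reads in one library than in another. Library totals lay between 12016242 and 20023108 reads.

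One Pcx L-/- library stood apart from its group in composition. The 50 most abundant genes held 34.8% to 38.3% of the reads in the control libraries, 33.8% in Pcx L-/- replicate 1 and 30.3% to 30.7% in Pcx L-/- replicates 2 to 4. Accordingly the TMM factor was 0.833 to 0.942 in controls, 0.97 in Pcx L-/- replicate 1 and 1.137 to 1.165 in the other 3. The summed normalized counts of 7 hepatocyte markers were 1517640 in Pcx L-/- replicate 1, against 1049560 to 1203060 in replicates 2 to 4 and 1645620 to 2119540 in controls. The same library held the most reads of 5 red blood cell markers, 0.396% of its total against 0.0260% to 0.106% in the other 7. Its 758 normalized counts of Pcx were close to the 556 to 732 of the other Pcx L-/- livers. Pcx L-/- replicate 1 and control replicates 1 and 2 carry mouse numbers in the 500s and the other 5 carry numbers in the 800s. The labels do not say what these numbers stand for. The part of these differences in the results below was not tested, and results that rest on Pcx L-/- replicate 1 are given with and without it.

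The 9 transcripts spanned a wide range of levels. On the FPKM scale, which divides by transcript length and library total, the control means ran from 189 ± 22.3 (SD, n = 4) for Creb3l3 to 4.86 ± 0.291 for Tfeb. Creb3l3 exceeded 97.6% of the tested genes and Tfeb 52.9%. Cebpa followed Creb3l3 at 167 ± 18.9 and Klf15 came next at 121 ± 20.3. The values of Creb3l3 and Cebpa overlapped among control mice, so their order was not resolved. Foxa3 at 23.4 ± 3.26 and Crtc2 at 16.6 ± 1.15 formed a middle tier. Foxo3 (10.9 ± 2.81), Foxo1 (10.8 ± 2.0) and Foxa2 (9.12 ± 1.96) came next, and neighbours among these 3 overlapped, whereas none of their control values reached those of Crtc2 above or Tfeb below. The order in Pcx L-/- liver was the same, except that Foxa2 at 14.6 ± 2.85 moved ahead of Foxo3 and Foxo1.

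**Figure D1:**
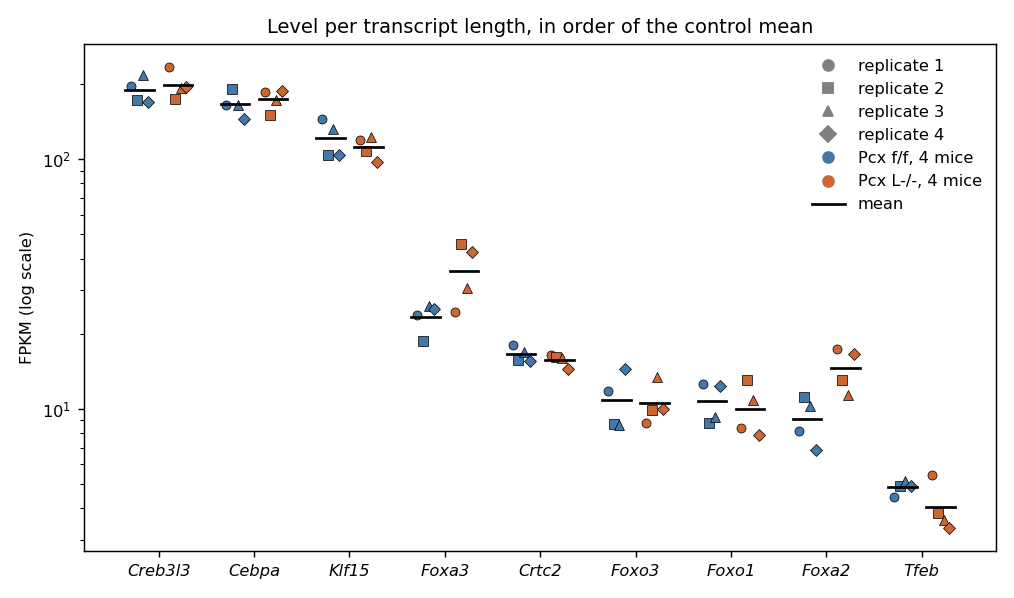
FPKM of the 9 transcription factors on a log axis, ordered by the control mean, with 1 point per mouse, marker shapes for replicate numbers and bars at the means. Creb3l3, Cebpa and Klf15 lie near or above 100 FPKM in both genotypes, and Foxa2 is the 1 factor whose 4 Pcx L-/- points all lie beyond the 4 control points on this scale.

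Between genotypes, 1 of the 9 factors passed the test. Crtc2 was lower in Pcx L-/- liver, and no factor was higher. Among all 13168 genes, 27.6% were called, 14.1% higher and 13.5% lower (edgeR quasi-likelihood test, adjusted p under 0.05), so the share of the 9 that changed was not above that of genes in general. The log2 fold changes ran from −0.52 to 0.42 with a median of −0.35, against a median of −0.005 over all genes, and 7 of the 9 lay below 0. For none of the 9 did all 4 mice of one genotype lie beyond all 4 of the other, which 27.6% of all genes did. No fitted change reached 2-fold. At an unadjusted edgeR p under 0.05, 4 factors were lower and 0 higher, and DESeq2 also gave 0 higher. That looser threshold passes more than the 27.6% of all genes called above, and its share was not taken, so the 4 cannot be set against it. Exact permutation tests on the 4 against 4 normalized counts of each of the 9 factors gave unadjusted two-sided p from 0.0571 to 0.257, where 0.0286 is the smallest value that this design allows. In whole liver, fewer cells of a type and less RNA per cell cannot be told apart.

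**Figure D2:**
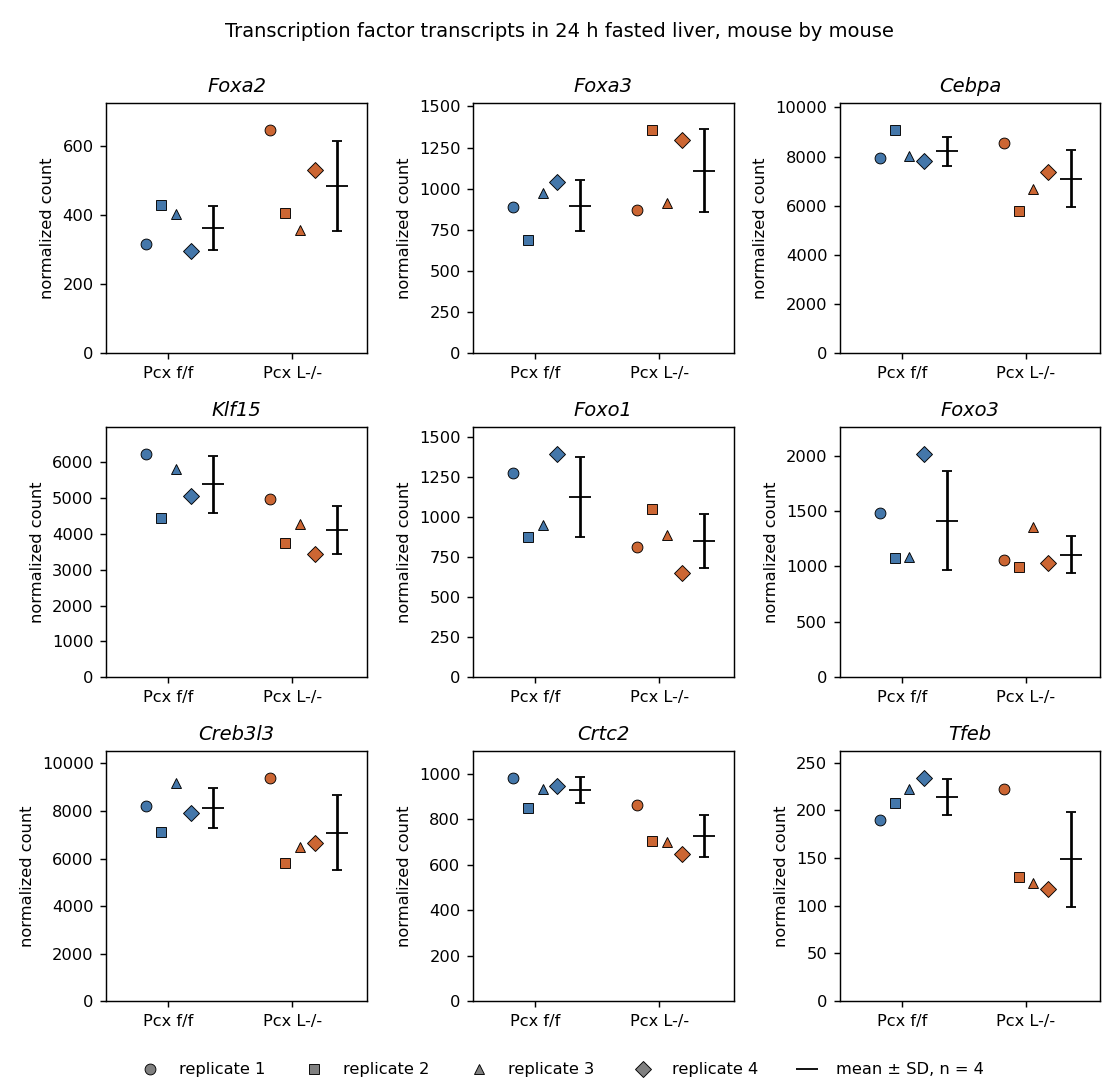
Normalized counts of the 9 transcription factors in each mouse, with the mean ± SD of 4 mice beside each genotype and y axes that start at 0. Genotypes overlap in every panel, and in the panels of Cebpa, Klf15, Creb3l3, Crtc2 and Tfeb the Pcx L-/- replicates 2 to 4 lie below all controls while replicate 1, drawn as a circle, lies among or above them.

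Crtc2 (ENSMUSG00000027936; chr3:90254163-90264125, GRCm38), the co-activator of CREB, had 984, 851, 932 and 949 normalized counts in control mice. The Pcx L-/- mice had 862, 705, 701 and 646. Replicate 1 thus lay just above the lowest control and the other 3 lay below every control. The Pcx L-/- mean was 728 ± 92.8 and the control mean 929 ± 56.5 (SD, n = 4 each), which the fit gave as a log2 difference of −0.35 (SE 0.11, 95% interval −0.60 to −0.11, edgeR adjusted p = 0.0367). Leaving out single mice moved the edgeR adjusted p between 0.00544 and 0.123. The call was lost without control replicates 1, 3 or 4 and without Pcx L-/- replicates 2, 3 or 4 (edgeR adjusted p = 0.0968, 0.0822, 0.0508, 0.0984, 0.103 and 0.123). On the FPKM scale the genotypes were closer, at 15.7 ± 0.886 and 16.6 ± 1.15.

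Tfeb (ENSMUSG00000023990), the regulator of lysosome and autophagy genes, showed the lowest fold change of the 9. Control mice had 190, 208, 222 and 234 normalized counts. Pcx L-/- replicate 1 had 223, while replicates 2 to 4 had 131, 124 and 117. Thus 3 of the 4 Pcx L-/- livers were well below the control range and 1 was inside it, which left a wide interval (log2 fold change −0.52, SE 0.20, −0.96 to −0.08) and no call (edgeR adjusted p = 0.0743). Without replicate 1 the log2 fold change was −0.78 (edgeR adjusted p = 0.00108). FPKM showed the same split, with 5.43 in replicate 1, 3.34 to 3.82 in the other 3 and 4.46 to 5.15 in controls. At 118 reads in its lowest library, Tfeb was the factor with the fewest reads.

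Klf15 (ENSMUSG00000030087), a Krüppel-like factor of the fasting response, had 6241, 4448, 5806 and 5056 normalized counts in controls and 4984, 3750, 4277 and 3445 in Pcx L-/- mice. Again 3 Pcx L-/- mice lay below the lowest control and replicate 1 within the control range. The log2 fold change of −0.39 (SE 0.15, 95% interval −0.73 to −0.05) did not pass (edgeR adjusted p = 0.0822). Without Pcx L-/- replicate 1 it was −0.50 (edgeR adjusted p = 0.0186).

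Creb3l3 (ENSMUSG00000035041), the membrane-bound factor upstream of Fgf21 and apolipoprotein genes, ranged from 7136 to 9187 normalized counts in controls. Pcx L-/- replicate 1 exceeded all of them at 9403, whereas replicates 2 to 4 lay below all of them at 5814, 6492 and 6662. Over all 8 mice the log2 fold change was −0.19 (95% interval −0.55 to 0.17, edgeR adjusted p = 0.414), and without replicate 1 it was −0.36 (edgeR adjusted p = 0.0364).

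Cebpa (ENSMUSG00000034957), the hepatocyte C/EBP factor, had 7946, 9091, 8029 and 7800 normalized counts in controls and 8552, 5787, 6689 and 7354 in Pcx L-/- mice. Here too replicate 1 alone lay inside the control range. The log2 fold change was −0.21 (95% interval −0.52 to 0.10, edgeR adjusted p = 0.298), and −0.32 without replicate 1 (edgeR adjusted p = 0.0616). An annotated antisense gene shares 51 exon bases with Cebpa and another, Gm20402, shares 674 with Foxo1. Gm20402 had 0 reads in these libraries. The sources used here do not state whether the counting used strand.

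The forkhead factors of insulin signalling did not show the same split among mice. Foxo1 (ENSMUSG00000044167) had 1275, 880, 951 and 1398 normalized counts in controls and 814, 1055, 888 and 654 in Pcx L-/- mice, so that 2 Pcx L-/- mice lay below the control range and 2 inside it. Its log2 fold change was −0.40 (95% interval −0.79 to −0.01, edgeR adjusted p = 0.122). Foxo3 (ENSMUSG00000048756) had 1478, 1073, 1087 and 2018 in controls and 1054, 992, 1358 and 1027 in Pcx L-/- mice. Pcx L-/- replicates 1, 2 and 4 lay below the control range of Foxo3 and replicate 3 inside it. The Foxo3 control mice were the most spread of the 9 factors relative to their mean, and the genotypes overlapped (log2 fold change −0.35, 95% interval −0.78 to 0.08, edgeR adjusted p = 0.217). Without control replicate 4, the highest at 2018, the Foxo3 log2 fold change was −0.13 (edgeR adjusted p = 0.552). Without Pcx L-/- replicate 1 neither passed (edgeR adjusted p = 0.162 for Foxo1 and 0.276 for Foxo3).

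Foxa2 and Foxa3, the pioneer factors of the hepatocyte, were the 2 factors with a fold change above 0. Foxa2 (ENSMUSG00000037025) had 318, 428, 404 and 297 normalized counts in controls and 647, 406, 357 and 530 in Pcx L-/- mice. Replicates 1 and 4 lay above the control range and replicates 2 and 3 within it. The log2 fold change was 0.42 (SE 0.19, 95% interval −0.00 to 0.84, edgeR adjusted p = 0.129), and without replicate 1 it was 0.24 (edgeR adjusted p = 0.302). Foxa3 (ENSMUSG00000040891) had 887, 686, 975 and 1042 in controls and 871, 1359, 911 and 1297 in Pcx L-/- mice. For Foxa3 it was replicates 2 and 4 that exceeded the controls (log2 fold change 0.31, 95% interval −0.08 to 0.69, edgeR adjusted p = 0.222). Without replicate 1 the Foxa3 value was 0.41 (edgeR adjusted p = 0.0862), and without replicate 2 it was 0.20 (edgeR adjusted p = 0.495). The Pcx L-/- mice with the highest Foxa2 were thus not all those with the highest Foxa3.

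The intervals bound what these livers could show. Each holds for a gene taken alone and is not adjusted for the number of genes tested, so an interval below control is not a call. Of Tfeb, Crtc2, Klf15 and Foxo1, Crtc2 alone was called. As a percentage of control, the 95% interval reached from 51.2% to 94.4% for Tfeb, from 66.2% to 92.9% for Crtc2, from 60.4% to 96.5% for Klf15 and from 57.8% to 99.5% for Foxo1. It reached from 68.2% to 112% for Creb3l3, from 69.6% to 107% for Cebpa and from 58.2% to 106% for Foxo3. For Foxa2 it ran from 99.9% to 179% and for Foxa3 from 94.7% to 162%.

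Read mouse by mouse, 5 of the 9 factors (Cebpa, Klf15, Creb3l3, Crtc2 and Tfeb) had Pcx L-/- replicates 2 to 4 below all 4 controls, as did 20.4% of all tested genes. The median log2 ratio of the 9 factors to their control means was −0.04 in Pcx L-/- replicate 1 and −0.48, −0.32 and −0.46 in replicates 2, 3 and 4. Without replicate 1, 4 of the 9 were lower (Crtc2, Klf15, Creb3l3 and Tfeb) and 0 higher, where 17.8% of 13330 genes were lower and 16.7% higher (edgeR adjusted p under 0.05). Within the mice numbered in the 800s, 3 Pcx L-/- against 2 controls, the same 4 were lower, where 15.8% of 13471 genes were. Within the mice numbered in the 500s, with 1 Pcx L-/- mouse against 2 controls and so no test, the log2 ratios of those 4 were −0.09 for Crtc2, −0.10 for Klf15, 0.29 for Creb3l3 and 0.16 for Tfeb. This division of the Pcx L-/- mice was seen in the data and does not follow the design beyond the mouse numbers.

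The calls also depended on how libraries were scaled. Scaling by library total alone moved the median of all genes from −0.005 to 0.28 on the log2 scale. On that scale Foxa2 and Foxa3 were called higher (log2 fold change 0.68 and 0.61, edgeR adjusted p = 0.0126 and 0.0238), where 29.7% of all genes were higher and 6.61% lower, and Crtc2 was not called (−0.07, edgeR adjusted p = 0.623). With the shifted median subtracted, the values were 0.40 for Foxa2, 0.33 for Foxa3, −0.35 for Crtc2, −0.54 for Tfeb and −0.22 for Cebpa. Their closeness to the TMM values follows largely from the subtraction, since the scalings differ by a factor for each library. It is not a separate result. The authors' FPKM carry the same scaling, and limma on log2(FPKM + 1) also called Foxa2 and Foxa3 higher, where 29% of all genes were. With its median subtracted, limma gave 0.44 for Foxa2, 0.38 for Foxa3, −0.25 for Crtc2, −0.42 for Tfeb and −0.12 for Cebpa. DESeq2, whose size factors correct for composition as TMM does, called Crtc2 and Klf15 lower, where 15.8% of all genes were. In FPKM Foxa2 rose in all 4 Pcx L-/- mice above the 4 controls (11.4 to 17.4 against 6.84 to 11.2), as did 27% of all genes, and Tfeb was the 1 factor with replicates 2 to 4 below all controls, where 8.73% of all genes were.

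**Figure D3:**
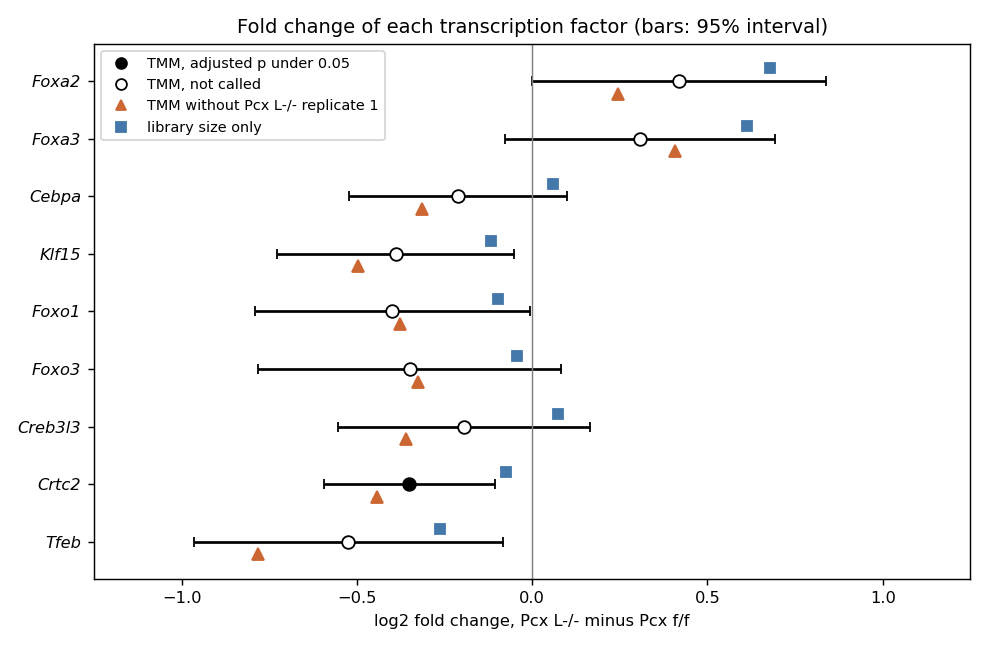
Log2 fold change of each factor in Pcx L-/- against Pcx f/f liver with its 95% interval (circles, filled where called), beside the value without Pcx L-/- replicate 1 (triangles) and the value with library totals as the only scaling (squares). Leaving out replicate 1 moves Tfeb from −0.52 to −0.78, and scaling by library total moves all 9 factors to the right.

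Promoter sequences of the factors were read for letters bound by members of the same network. RefSeq start sites on GRCm38.p6 gave 13 windows of 300 bases for 8 of the factors, all but Crtc2. The E-box letters CACGTG, the core of the element that TFEB binds, were in 1 of the 13 windows, that of Klf15, and in 7.15% of 32851 windows of all genes. The 2 copies that lie clear of the start stand 228 and 172 bases before it on the plus strand, at chr6:90462328-90462373 and chr6:90462384-90462429, with the E-box in capitals and 20 bases on each side.
Klf15, 228 bases before the start: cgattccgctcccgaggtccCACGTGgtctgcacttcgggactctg
Klf15, 172 bases before the start: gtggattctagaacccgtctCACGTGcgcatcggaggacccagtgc
The GC box GGGCGG, read by Sp and Krüppel-like factors, was in 10 of the 13 windows on either strand and in 35.7% of all windows. The 10 were windows of Foxa2, Foxa3, Foxo1, Foxo3, Klf15 and Tfeb, and several start sites of Foxa2 and of Tfeb were counted separately. The GC box is shown for Tfeb at chr17:47736980-47737025 and for Foxo1 at chr3:52268244-52268289. These are the other factors with a window whose 95% interval lay below 0, though neither was called.
Tfeb, 37 bases before the start: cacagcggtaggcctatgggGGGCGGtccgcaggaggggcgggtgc
Foxo1, 73 bases before the start: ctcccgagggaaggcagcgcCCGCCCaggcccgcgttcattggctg
The second of these holds the GC box on the opposite strand. The full cAMP response element TGACGTCA was in 0 of the 13 windows and in 1.79% of all windows, and the forkhead letters GTAAACA in 0 and 3.65%. The palindromic C/EBP letters TTGCGCAA were in 0 and 0.183%, and the C/EBP-ATF letters TGATGNAAT in 0 and 0.965%. The extended E-box TCACGTGA, which contains the E-box letters, was found once, across the Klf15 start, and in 0.974% of all windows. A match in these windows is a description of the letters and not of binding.

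For each factor the tested gene with the most similar profile over the 8 mice was found by the root mean square difference of centred log2 normalized counts. That difference includes the shift between genotypes, so the match of a lower factor tends to be lower by the way it was chosen. The closest pair was Crtc2 with Acsm1, an acyl-CoA synthetase of medium-chain fatty acids, at 0.0356. Acsm1 was lower (log2 fold change −0.40, edgeR adjusted p = 0.0293). Klf15 was closest to the clock gene Per1 (0.0685), Cebpa to Rnf13 (0.0702), Creb3l3 to the glutathione transferase Gstm7 (0.0716), Foxa3 to Cdk20 (0.0759) and Tfeb to Sigirr (0.0798). Sigirr was lower (−0.55, edgeR adjusted p = 0.0423). Foxo1 (Helz, 0.109), Foxo3 (Erc1, 0.12) and Foxa2 (Zfp458, 0.131) had no gene as close. The measure was not scaled by the spread of each gene, so a factor that varies more between mice lies further from other genes. Zfp458 had few reads, with means of 14.2 normalized counts in Pcx L-/- and 10.4 in control mice.

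Close relatives and partners of the 9 factors moved in both directions. Of 21 tested relatives, 2 were higher and 3 lower, with a median log2 fold change of 0.01. Among all 13168 genes of the same fit, 14.1% were higher and 13.5% lower (edgeR adjusted p under 0.05). Foxo4, another FOXO gene, was lower where Foxo1 and Foxo3 were not called (359 ± 25.6 against 550 ± 26.0 normalized counts, log2 fold change −0.62, edgeR adjusted p = 0.00166). Creb3, a relative of Creb3l3, was higher (788 ± 24.9 against 562 ± 43.3, 0.49, edgeR adjusted p = 0.00444), and so was Cebpg, a dimer partner of the C/EBP family (0.45, edgeR adjusted p = 0.0198). Klf13 was lower (−0.76, edgeR adjusted p = 0.0212), and Cebpd, named after its value was seen, was also lower (−0.47, edgeR adjusted p = 0.0425). The differences between the fold changes of these relatives and those of the 9 factors were not tested. Among 20 other liver transcription factors, 1 was higher, Tbx3 (0.49, edgeR adjusted p = 0.0161), and 8 were lower, with a median of −0.30. Cux2, a homeobox gene, had the lowest fold change (−2.81, edgeR adjusted p = 0.00364), followed by Srebf1, the lipogenic factor (−1.38, edgeR adjusted p = 0.00451). All 4 nuclear factor I genes, named after their values were seen, were lower (log2 fold change −1.19 for Nfia, −0.90 for Nfix, −0.72 for Nfib and −0.62 for Nfic, edgeR adjusted p = 0.0065, 0.00173, 0.00598 and 0.0118). With library totals as the only scaling, 4 relatives were higher and 2 lower, and 3 of the other liver factors were higher and 6 lower. On that scale 29.7% of all genes were higher and 6.61% lower.

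The transcripts of the proteins that control the fasting factors were read next. With TMM scaling, 27.6% of all 13168 genes were called, 14.1% higher and 13.5% lower. For Foxo1 and Foxo3, 1 of 14 regulators was higher and 3 were lower, with a median of −0.33. Sgk1, a kinase that like AKT phosphorylates FOXO proteins, rose from 644 ± 88.5 to 2846 ± 1639 normalized counts (2.14, edgeR adjusted p = 0.00254). The insulin receptor Insr (−0.53, edgeR adjusted p = 0.031) and the phosphoinositide 3-kinase subunits Pik3ca (−0.44, 0.0277) and Pik3r1 (−0.41, 0.0379) were lower. For Crtc2, 0 of 16 regulators were higher and 2 lower, with a median of −0.14. These were Sik1, a kinase that retains CRTC2 in the cytoplasm and is itself a CREB target (−1.02, edgeR adjusted p = 0.0253), and the acetyltransferase Ep300 (−0.42, edgeR adjusted p = 0.0397). An unadjusted edgeR p under 0.05 and DESeq2 also gave 0 higher among regulators of Crtc2, but the shares of all genes higher by these criteria were not taken. Of 8 regulators of Creb3l3, 1 was higher and 3 lower, with a median of −0.22. Mbtps2, which encodes the site-2 protease, was higher (0.49, edgeR adjusted p = 0.0268), and Insig1, Scap and Btrc were lower (−1.17, −0.62 and −0.48, edgeR adjusted p = 0.00451, 0.0188 and 0.0128). Of 14 regulators of Tfeb, 4 were higher and 2 lower, with a median of −0.06. Lamtor1, Rheb and Xpo1, which encode a lysosomal anchor of mTORC1, its activating GTPase and a nuclear export receptor, were higher (0.53, 0.52 and 0.52, edgeR adjusted p = 0.00416, 0.00591 and 0.00731). Fnip2, a partner of folliculin, was lower (−0.70, edgeR adjusted p = 0.00384). With library totals as the only scaling, 29.7% of all genes were higher and 6.61% lower. On that scale 4 regulators of Foxo1 and Foxo3 were higher and 0 lower. The counts were 2 and 1 for those of Crtc2, 1 and 1 for those of Creb3l3 and 5 and 1 for those of Tfeb.

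Genes known as targets of the 9 factors were read by list. In the main fit with TMM scaling, 14.1% of all 13168 genes were higher and 13.5% lower. The lists share genes such as G6pc and Pck1, and Fgf21, Cidec, Apoa4 and Sgk1 were named by the study from these mice. The list of Foxa2, Foxa3 and Cebpa targets also overlaps the hepatocyte markers read further below, with Apoa1 in both, so these 2 lists are not separate results. Of 13 tested targets of Foxa2, Foxa3 and Cebpa, 0 were higher and 8 lower, and all 13 fold changes lay below 0 (median −0.73). Apoa1 (79098 ± 17355 against 162109 ± 20020 normalized counts, −1.04, edgeR adjusted p = 0.004) and the glucose transporter Slc2a2 (−1.01, edgeR adjusted p = 0.00653) were lowest. The 8 lower fell to 4 without control replicate 3 or without Pcx L-/- replicate 2, 3 or 4, and rose to 10 without control replicate 2 or Pcx L-/- replicate 1. Calls over all genes went from 3632 to 2624 without control replicate 3. They were 2295, 2469 and 2109 without Pcx L-/- replicates 2, 3 and 4. Without control replicate 2 they were 3219, and without Pcx L-/- replicate 1 they were 4602. At an unadjusted edgeR p under 0.05 and in DESeq2, 0 of these 13 were higher. Of 14 targets of Klf15, 0 were higher and 4 lower (median −0.64), led by the urea cycle gene Otc (−1.61, edgeR adjusted p = 0.00237) and the tryptophan dioxygenase Tdo2 (−1.30, edgeR adjusted p = 0.00497). Without Pcx L-/- replicate 1, 11 of the Klf15 targets were lower, where 17.8% of 13330 genes were. An unadjusted edgeR p under 0.05 and DESeq2 also gave 0 higher among the Klf15 targets. For both lists the shares of all genes higher by these criteria were not taken. With library totals as the only scaling, 7 targets of Foxa2, Foxa3 and Cebpa and 4 of Klf15 were lower and 0 higher. Among all genes 29.7% were higher and 6.61% lower on that scale.

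Of 18 targets of Foxo1 and Foxo3, 2 were higher and 7 lower (median −0.36). The shares of all genes in the same fit were 14.1% higher and 13.5% lower. Gadd45a, a stress-response gene, had 238 ± 138 normalized counts in Pcx L-/- liver and 14.8 ± 13.9 in controls (3.95, edgeR adjusted p = 0.000971), and Pdk4, the kinase that inhibits pyruvate dehydrogenase, was also higher (1.31, edgeR adjusted p = 0.0496). The mitophagy receptor gene Bnip3 and the catalase gene Cat were lower (−1.21 and −1.03, edgeR adjusted p = 0.00814 and 0.00312). Of 11 targets of Creb3l3, 5 were higher and 4 lower (median 0.14). The hormone gene Fgf21 rose from 30.8 ± 19.4 to 595 ± 395 (4.23, edgeR adjusted p = 0.000735) and the lipid droplet gene Cidec from 277 ± 59.2 to 3018 ± 721 (3.45, edgeR adjusted p = 2.18e-05), while Creb3l3 itself did not pass. The acute-phase gene Crp (−0.91, edgeR adjusted p = 0.00452) and the glucose-6-phosphatase gene G6pc (−0.90, edgeR adjusted p = 0.0477) were lower.

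Of 11 tested targets of Crtc2 and Creb1, 2 were higher and 3 lower (median −0.43). The immediate-early genes Nr4a2 and Fos were higher at few reads (22.7 ± 9.16 against 7.04 ± 5.10 and 42.1 ± 28.2 against 14.2 ± 3.76 normalized counts, edgeR adjusted p = 0.0204 and 0.0409). Sik1 and G6pc were lower, as given above. Of 30 tested targets of Tfeb, 5 were higher and 8 lower (median −0.10). The GTPase gene Rragd (0.96, edgeR adjusted p = 0.0351) and the autophagy receptor Sqstm1 (0.92, edgeR adjusted p = 0.00567) were higher, and Wipi1, an early autophagosome gene (−1.03, edgeR adjusted p = 0.000971), and Fnip2 were lower. With library totals as the only scaling, 4 were higher and 3 lower among targets of Foxo1 and Foxo3. The counts were 5 and 3 for Creb3l3, 3 and 2 for Crtc2 and Creb1, and 8 and 3 for Tfeb. Among all genes 29.7% were higher and 6.61% lower on that scale.

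Counts in the other lists also depended on single mice. Calls over all genes moved too, from 3632 with all mice to 2722 and 2624 without control replicates 1 and 3. Without Pcx L-/- replicates 2, 3 and 4 they were 2295, 2469 and 2109. Whether these lists lost more calls than genes in general was not tested. Among targets of Foxo1 and Foxo3 the 7 lower fell to 3 without control replicate 3 and to 2 without Pcx L-/- replicate 2, 3 or 4. Among targets of Creb3l3 the 4 lower fell to 2 without control replicate 1 and to 1 without control replicate 3 or Pcx L-/- replicate 2, 3 or 4, while 4 or 5 were higher each time. Among targets of Crtc2 and Creb1, leaving out single mice left 0 to 2 higher and 0 to 4 lower, with 0 in both directions without Pcx L-/- replicate 4. Among targets of Tfeb it left 2 to 6 higher and 4 to 8 lower, with the fewest of both without Pcx L-/- replicate 4. The regulators of Foxo1 and Foxo3 ranged from 0 to 3 lower and those of Crtc2 from 0 to 3 lower, with 0 of either list without Pcx L-/- replicate 2.

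Calls of some of the genes named in these lists depended on the alternative. The calls of Btrc, Cebpd, Cebpg, Ep300, Fos, G6pc, Insr, Klf13, Mbtps2, Nr4a2, Pdk4, Pik3ca, Pik3r1, Rragd, Scap, Sik1 and Tbx3 were lost in at least 1 alternative. Pdk4 was called in 7 of 20 alternatives and not by DESeq2. G6pc was called in 8 and Cebpd, Ep300 and Pik3r1 in 9 each, whereas Cebpg and Tbx3 were called in 17 each. Those of Foxo4, Creb3, Sgk1, Fgf21, Cidec, Gadd45a, Otc, Apoa1 and Wipi1 held in every alternative that gave a value. G6pc, a target shared by several of the factors, was not called without Pcx L-/- replicate 1 (−0.78, edgeR adjusted p = 0.0787).

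**Figure D4:**
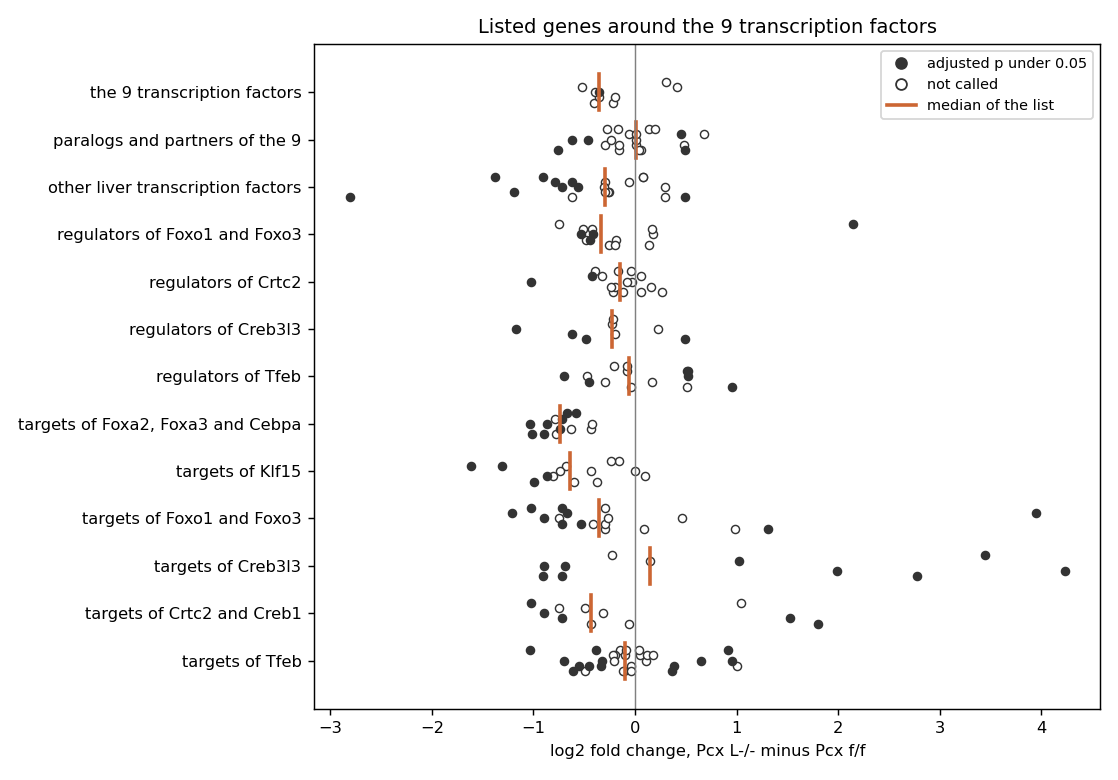
Log2 fold change of every tested gene of each list, with 1 point per gene, filled where edgeR called it and open where it did not, and an orange bar at the median of the list. The 9 factors span −0.52 to 0.42, the targets of Foxa2, Foxa3 and Cebpa all lie below 0, and the targets of Creb3l3 reach 4.23.

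Markers of other liver cells were read beside these results, where edgeR called 14.1% of all genes higher and 13.5% lower. None of 8 macrophage, 7 endothelial, 7 stellate cell and 5 red blood cell markers was called by edgeR or DESeq2, with median log2 fold changes of 0.09, −0.03, −0.00 and 1.29. At an unadjusted edgeR p under 0.05, 2 of these 27 were lower and 0 higher, and the share of all genes at that threshold was not taken. Of 5 tested cholangiocyte markers 1 was lower, Sox9, and of 7 hepatocyte markers 3 were lower (median −0.61). The summed red blood cell markers reached 69307 normalized counts in Pcx L-/- replicate 1, against 6244 to 15778 in the other Pcx L-/- livers and 4747 to 16715 in controls. No hepatocyte, macrophage, endothelial, stellate cell or red blood cell marker was at 0 in any library. Of 5 neutrophil markers 1 was tested and not called (1.40), and 1 to 3 were at 0 in each library. The part of cell composition in the values of the 9 factors was not tested.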

How the data were processed

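Liver RNA from 4 Pcx L-/- and 4 Pcx f/f mice had been sequenced and aligned to mm10 (GRCm38). The submitters' processing notes name STAR 2.5, HTSeq 0.6.1 and DESeq2. The authors deposited read counts per Ensembl gene, unnormalized, and FPKM values, which the authors computed as count divided by gene length and library total (all 142384 values above 0 fit within a relative tolerance of 1e-06). Symbols from GENCODE M21 matched 97.8% of 35275 identifiers.

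Counts were tested with edgeR 4.0.16 in R 4.3.3 with TMM factors, filterByExpr (minimum count 10, minimum total 15), the quasi-likelihood F test on genotype alone and Benjamini-Hochberg correction across 13168 genes. An adjusted p under 0.05 was a call. Standard errors are approximate. The steps were tested on simulated data. The alternatives comprised further scalings, filters, DESeq2 1.42.0 without and with apeglm 1.24.0, limma 3.58.1 on log2(FPKM + 1) and log2(FPKM + 0.1), a replicate block, the mouse number series and leaving out each mouse. The smallest library held 12016242 reads, and intervals cover the spread between 4 mice per genotype. The labels name each library as a separate mouse. Replicates of a genotype correlated at 0.976 to 0.993 (Spearman) and differed by more than counting noise. Same-numbered mice did not deviate together.

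The 9 members and the gene lists were chosen with earlier results of these data known. Named genes are the 9 members, up to 4 called genes per list of relatives or regulators by smallest p, the 2 called genes with the largest fold change in each direction in the other lists, Pcx, and the closest profile of each member. Others are said to be named after their values were seen. The symbol Tf was not matched. Promoters came from RefSeq tables and motifs were searched on both strands.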

Additional observations from a re-analysis of the deposited data

Results flagged for a closer look

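In 2 of 18 groups of 4 mice (9 factors in 2 genotypes), 1 mouse lay far enough from the other 3, relative to the range of the group, to pass the 95% limit of Dixon's test, which chance alone passes in about 1 of 20 groups. Tfeb in Pcx L-/- replicate 1 had 223 normalized counts, with a gap of 0.873 of the group's range to the nearest of the other 3 Pcx L-/- mice at 131. Foxo3 in Pcx L-/- replicate 3 had 1358 normalized counts, with a gap of 0.831 of the range to the next at 1054.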

How the results depend on the processing

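Of the 9 factors, 0 were higher and 1 lower, with 3632 genes called in all. Scaling by library total and limma on log2(FPKM + 1) or log2(FPKM + 0.1) each gave 2 higher and 0 lower. No factor was lower without the filter on low counts, with a replicate block or when at least 2-fold was asked, each giving 0. DESeq2, without or with apeglm, gave 2 lower, and mice numbered in the 800s gave 4 lower. Leaving out 1 mouse gave 0 to 4 lower, and 2109 to 4602 genes called. With the replicate block Crtc2 had an edgeR adjusted p of 0.0607. The same-numbered pairs correlated at 0.0958, −0.127, −0.0938 and −0.0677, so numbers were not read as pairs. Cebpa turned above 0 by library total (0.0592) and in limma (0.0603 and 0.0607), as did Creb3l3 (0.0733, 0.0717 and 0.072). The median of all genes was 0.28 by library total and 0.184 in limma on log2(FPKM + 1). Library totals without Pcx L-/- replicate 1, a setting chosen after seeing the data, gave 2 higher, 1 lower and 6307 genes called, with Cebpa at 0.0271 and Foxo3 at 0.0355. Of 440 list counts over 20 alternatives 308 stayed within 1.5 times and 132 moved. No listed gene named above reversed in 917 values, of which 143 lost the call. Of 45 named genes called, 26 held their call in every alternative that gave a value.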
